A study of Mus musculus with 6 samples.

Results

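Hippocampal RNA was sequenced from young adult male C57BL / 6 mice, 3 sham and 3 TBI, taken 24 h after surgery, with 1 library per mouse. TBI mice received a controlled cortical impact of moderate severity over the right parietal cortex after a craniotomy under ketamine and xylazine, and sham mice went through the same surgery and anesthesia without the impact. The libraries are named Sham1 to Sham3 and TBI1 to TBI3. The 10 genes described here, Sst, Npy, Vip, Cck, Penk, Pdyn, Tac1, Tac2, Crh and Nts, encode neuropeptide precursors and were taken by name from the 52550 genes listed. All 10 had counts in every library and all 10 passed the filter on low counts that left 18795 genes for testing.

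A neuropeptide is made as a longer precursor protein, which convertases cut at pairs of basic residues before the peptide is stored in dense-core vesicles and released during strong firing. In the hippocampus, Sst and Npy mark interneurons that contact dendrites, Vip marks interneurons that mostly contact other interneurons, and Cck is made by a class of basket cells and at lower levels by pyramidal cells. Penk and Pdyn, the opioid precursors, are found in granule cells and their mossy fibers, and Npy, Penk and Tac2 are known to rise after seizures. Outside the hippocampus, Penk, Pdyn and Tac1 are classic transcripts of the projection neurons of the striatum, and Tac2 is strong in the medial habenula.

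The peptides themselves are short, and the coding stretches that carry them are shown for 3 of the precursors whose levels stood out, Penk, Tac1 and Cck, with Tac2 added as the relative of Tac1. In Penk the codons of the opioid core Tyr-Gly-Gly-Phe are in capitals. In Tac1 and Tac2 the capitals mark the tachykinin core, Phe, any residue, Gly, Leu and Met, and in Cck they mark the Trp-Met-Asp-Phe end that its receptors recognize. The sequences are coding-strand bases of GENCODE vM21 transcripts on GRCm38.
Penk: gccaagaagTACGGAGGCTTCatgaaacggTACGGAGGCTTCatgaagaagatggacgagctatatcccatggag
Tac1: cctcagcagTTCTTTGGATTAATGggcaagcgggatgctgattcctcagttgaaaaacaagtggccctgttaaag
Tac2: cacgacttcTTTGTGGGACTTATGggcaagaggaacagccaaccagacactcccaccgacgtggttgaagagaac
Cck: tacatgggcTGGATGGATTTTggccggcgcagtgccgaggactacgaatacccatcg

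The Penk stretch covers codons 97 to 121 and holds 2 of the 7 opioid cores of the 268-codon precursor. Tac1 has 2 tachykinin cores in 130 codons, and Tac2 has 1 in 116 codons. Pairs of basic residues, counted with overlaps, numbered 12 in Penk and 7 in Tac1, against 1 in the 116 codons of Sst and 2 in the 97 codons of Npy. Which of these pairs convertases cut was not tested.

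Levels are in CPM, the count of a gene scaled for the depth of its library with edgeR's TMM factors. Total counts ran from 31630936 to 41771872 per library. Some libraries stood apart in markers of other brain regions. The summed level of 12 striatum markers was 4934 CPM in TBI1 and 232 to 324 CPM in the other 5 libraries, and all 12 genes were highest in TBI1. There Adora2a, a receptor of striatal projection neurons, was at 296 CPM, against 2.04 to 4.24 CPM elsewhere. TBI1 was also low in the hippocampal markers C1ql2 (granule cells), at 2.45 CPM against 39.6 to 86.0 CPM, and Fibcd1 (CA1), at 13.1 CPM against 49.4 to 142 CPM. TBI3 was high in cerebellum markers, with a summed level of 2654 CPM over 10 genes against 207 to 293 CPM elsewhere. Choroid plexus markers summed to 55.5 CPM in Sham2, 244 CPM in TBI1 and 265 CPM in TBI3, against 2057 to 2399 CPM in the rest. In addition, 12 of 17 neuronal activity genes were highest in Sham2. The members are therefore given with and without TBI1. What part these differences had in the peptide levels was not tested.

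**Figure D1:**
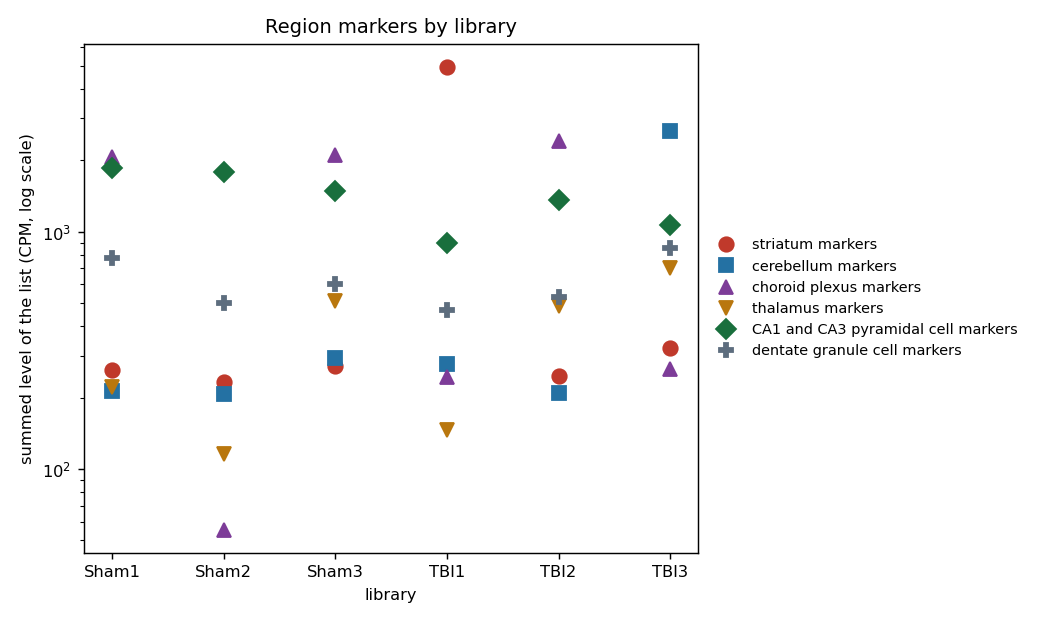
Summed level of 6 lists of region markers (y axis, CPM, log scale) in each of the 6 libraries (x axis), 1 point per list and library. Striatum markers reached 4934 CPM in TBI1 and cerebellum markers 2654 CPM in TBI3, while choroid plexus markers lay at 55.5 to 265 CPM in Sham2, TBI1 and TBI3.

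In sham hippocampus Cck and Sst were the most abundant of the 10 transcripts. Per kilobase of the principal transcript, Cck had 411 ± 89.8 CPM and Sst 349 ± 39.8 CPM (SD, n = 3 mice), and their ranges overlapped. Npy followed at 94.8 ± 38.8 CPM per kilobase, and its highest sham library, at 139, stayed below the lowest of Sst, at 322. Penk was next at 21.6 ± 13.0 CPM per kilobase and ran from 12.7 to 36.6 over the sham mice, a range that overlapped that of Vip (9.68 to 14.1). Vip, Tac1, Nts and Tac2 had means from 6.89 to 11.6 CPM per kilobase, and each overlapped its neighbor in that order. Pdyn, at 3.97 ± 1.43, overlapped Tac2, and Crh was lowest at 1.88 ± 0.209 CPM per kilobase, with no overlap with Pdyn. With all annotated exons as the length, Sst came before Cck and Nts rose from the seventh to the fifth place, so the order within these neighbors depends on the transcripts assumed.

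The question of the study was which transcripts differ between injured and sham hippocampus. It was tested gene by gene with the quasi-likelihood F-test of edgeR, and p was adjusted over all 18795 genes by the Benjamini-Hochberg method. A gene was called by the thresholds of the study, which were a p under 0.05, an adjusted value under 0.1 and a fold change beyond 1.5 in either direction. None of the 10 peptide genes was called, and 0 of all genes were (0%). The adjusted p of the members lay between 0.982 and 0.996. An unadjusted p under 0.05 was reached by Cck, lower in TBI, and by Penk, higher in TBI, 2 of 10, against 4.29% of all genes tested. The levels of the groups did not overlap in 1 member, Cck, which was lower in TBI, as were 5.46% of all genes, and in 0 members that were higher, against 4.77%. DESeq2 with its defaults also called 0 members, against 0.219% of the 20988 genes to which it gave an adjusted p, and at an unadjusted p under 0.05 it had Cck alone, against 4.11% of the 28118 genes with a p. DESeq2 gave no p for Penk, Pdyn and Tac1, where 1 library is marked as a count outlier. The median log2 fold change of the 10 genes was -0.22, against 0.0091 over all genes. In bulk tissue, fewer cells of a type and less RNA per cell cannot be told apart.

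**Figure D2:**
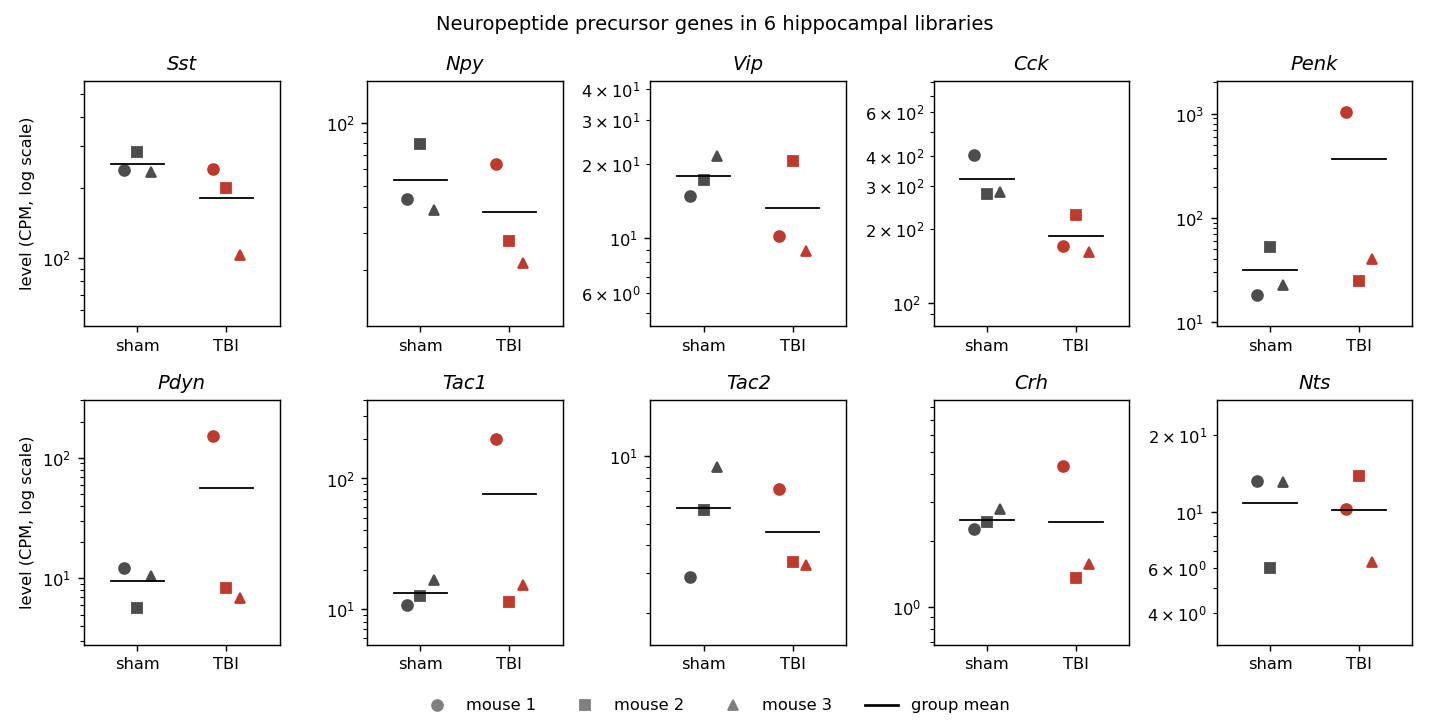
Level of each of the 10 precursor genes (y axis, CPM, log scale) in sham (grey) and TBI (red), with 1 symbol per mouse and a line at the group mean. Cck was lower in all 3 TBI mice than in any sham mouse, and the TBI1 points of Penk, Pdyn and Tac1 lie at 1028, 152 and 201 CPM, far above all others.

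Cck (ENSMUSG00000032532.7, chromosome 9 of GRCm38, 121489824 to 121495694, minus strand) was the member whose groups did not overlap. Its level was 403, 278 and 285 CPM in Sham1 to Sham3 and 171, 230 and 161 CPM in TBI1 to TBI3. Each TBI mouse was below each sham mouse. The mean went from 322 ± 70.3 CPM in sham to 187 ± 36.9 CPM in TBI (SD, n = 3 mice). The log2 fold change of Cck was -0.78 (standard error 0.206), and with an edgeR adjusted p of 0.982 it did not pass the thresholds. DESeq2's defaults gave an adjusted p of 0.275. The difference was about as large without TBI1, at -0.72 (standard error 0.241), and without TBI3, at -0.69 (standard error 0.235). In TBI2 the sums of the striatum and cerebellum markers were within the sham ranges, and with TBI2 alone against the sham mice the value was -0.49 (standard error 0.280). The markers of CA1 and CA3 pyramidal cells, which also make Cck, moved with it, since their summed level was 1487 to 1853 CPM in sham and 899 to 1364 CPM in TBI. Of these 12 markers, 10 had a negative log2 fold change, with a median of -0.67, and 9 were lowest in TBI1, whereas Cck was lowest in TBI3. Their part in the level of Cck was not tested.

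Sst (ENSMUSG00000004366.3, chromosome 16, 23889573 to 23890958, minus strand), which encodes somatostatin, had levels of 238, 284 and 232 CPM in sham and 240, 198 and 103 CPM in TBI. TBI1 lay within the sham range, TBI2 just below it, and TBI3 at less than the other libraries by a wide margin, 0.518 times the next lowest. Sst had a log2 fold change of -0.48 (standard error 0.299, edgeR adjusted p 0.982). It was -0.20 without TBI3 and -0.74 without TBI1, so the size of the difference rests on which TBI mouse is counted. In TBI3 the interneuron transcription factors Lhx6, at 6.74 CPM against 10.8 to 16.8 CPM, and Dlx1, at 12.4 CPM against 23.2 to 38.6 CPM, were also lowest. In contrast, the GABA synthesis gene Gad1 was at 344 CPM in TBI3 and 522 CPM in TBI1, against 247 to 315 CPM in sham. Of all 22 interneuron markers, 7 were lowest and 3 were highest in TBI3, the library with 2654 CPM of cerebellum markers, and Pvalb was at 470 CPM there against 38.4 to 97.9 CPM elsewhere. The cerebellum also expresses Gad1 and Pvalb, and its part in these levels was not tested.

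Cort encodes cortistatin, a peptide related to somatostatin that binds the same receptors. It was measured at 9.62, 6.70 and 8.49 CPM in sham and 2.35, 5.37 and 3.31 CPM in TBI. All TBI mice were below all sham mice. The log2 fold change of Cort was -1.17 (standard error 0.350, edgeR adjusted p 0.982). It was -0.93 without TBI1, -1.55 without TBI2 and -0.62 with TBI2 alone. Among the somatostatin receptors, Sstr3, the form found on neuronal cilia, had 34.4, 49.0 and 27.6 CPM in sham and 13.0, 24.5 and 19.0 CPM in TBI. Its groups were separate too, with a log2 fold change of -0.97 (standard error 0.302), again at an edgeR adjusted p of 0.982. The value of Sstr3 was -0.77 without TBI1, -1.21 without TBI2 and -0.51 with TBI2 and TBI3 against Sham1 and Sham3.

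Of the 8 precursors with a RefSeq promoter (250 bases before to 50 after the gene start, GRCm38.p6), Sst was the one that held the full cAMP response element TGACGTCA. This motif is present in 1.79% of 32851 promoters of that length. It was searched on both strands, on which it reads the same, and is shown in capitals at -48 from the RefSeq start, on the minus strand at chr16:23890874-23890903. This start lies inside the Sst gene as GENCODE gives it, so by the GENCODE coordinates above the element is within the gene.
Sst: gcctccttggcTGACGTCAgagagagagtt
The shorter TGACG, which is contained in the full element, was present on either strand in the promoters of Sst, Vip, Cck, Tac1 and Nts, and in 20.8% of all promoters. The AP-1 motif TGANTCA was found in that of Nts and in 7.81% of all. Penk and Crh were not in the promoter table.

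Npy (ENSMUSG00000029819.6, chromosome 6, 49822710 to 49829507, plus strand), which encodes neuropeptide Y, an inhibitor of glutamate release from excitatory terminals, was measured at 43.4, 78.8 and 38.7 CPM in sham and 63.8, 27.5 and 21.7 CPM in TBI. TBI1 lay inside the sham range, while TBI2 and TBI3 were below all sham mice. The log2 fold change over all libraries was -0.51 (standard error 0.466, edgeR adjusted p 0.982). Without TBI1 it was -1.13 (standard error 0.353, edgeR adjusted p 0.906), and without Sham2 it was -0.12. When TBI2 and TBI3 were set against Sham1 and Sham3 alone, the value was -0.74 (standard error 0.174, edgeR adjusted p 0.853). Of its receptors, Npy2r, the presynaptic form, was at 49.4, 34.5 and 26.1 CPM in sham and 7.07, 27.4 and 10.1 CPM in TBI. TBI2 lay within the sham range of Npy2r, and TBI1 and TBI3 were below it. The log2 fold change of Npy2r was -1.31 (standard error 0.529, edgeR adjusted p 0.982). It was -0.97 without TBI1, where its unadjusted edgeR p rose to 0.0961, -2.10 without TBI2 and -0.42 with TBI2 alone.

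Npy and Sst were the pair of members with the most similar course over the 6 libraries. The root mean square difference of their centered log2 levels was 0.356, the smallest among the member pairs, ahead of Vip and Cck at 0.398.

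Within the sham group, Sham2 differed from the other mice in several peptide genes. Npy was 2.04 times the lowest sham mouse, and Penk was at 53.0 CPM in Sham2 against 18.4 and 22.6 CPM. Pdyn went the other way and was at 5.65 CPM in Sham2, against 12.3 CPM in Sham1 and 10.5 CPM in Sham3. Trh, the precursor of thyrotropin-releasing hormone, was at 122 CPM in Sham2, while it was listed at 0 in Sham1 and at 1.43 to 4.04 CPM in the other libraries. Grp, which encodes gastrin-releasing peptide, was at 48.1 CPM in Sham2 against 17.7 to 19.5 CPM in the other sham mice. Gal, the galanin precursor, named after its values were seen, was at 23.7 CPM against 0.312 to 1.86 CPM elsewhere. The 10 markers of the hypothalamus, a tissue that makes Trh and Gal, summed to 3.69 CPM in Sham2 and to 4.22 and 7.34 CPM in Sham1 and Sham3. Avp, a gene of this list, was at 1.92 CPM in Sham2, 0.321 CPM in Sham1 and 1.87 CPM in Sham3, and Sim1 and Hmx2 were at 0 in all 6 libraries. Their part in the levels of Trh and Gal was not tested. Of the 17 neuronal activity genes, 12 were highest in this mouse. Fos was at 70.2 CPM against 15.3 and 19.3 CPM in the other sham mice, Nptx2, which clusters glutamate receptors, at 146 CPM against 35.1 and 35.0 CPM, and Inhba, an activin subunit induced by firing, at 66.4 CPM against 10.3 and 10.9 CPM. Other genes of the list did not follow. Nr4a3 was at 32.4 CPM in Sham2 against 57.1 and 59.9 CPM in Sham1 and Sham3, and Egr4, at 37.6 CPM, was below the 41.0 CPM of Sham1. What part these levels of Sham2 had in the group differences was not tested beyond the values without it.

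**Figure D3:**
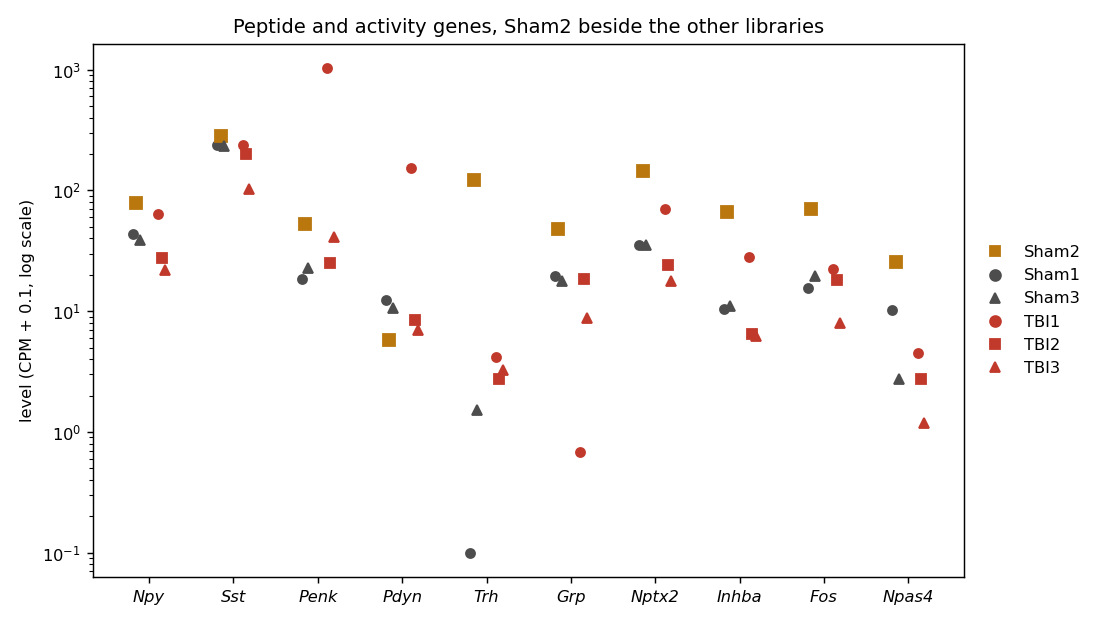
Level (y axis, CPM + 0.1, log scale) of 4 peptide precursor members, of Trh and Grp, and of 4 neuronal activity genes in each library, with Sham2 in orange, the other sham mice in grey and TBI mice in red. Sham2 had the highest sham value of every gene plotted except Pdyn, where it was lowest, and Trh stood at 122 CPM in Sham2 against at most 4.04 CPM elsewhere.

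Penk (ENSMUSG00000045573.9, chromosome 4, 4133531 to 4138819, minus strand), the precursor of Met- and Leu-enkephalin, had 18.4, 53.0 and 22.6 CPM in sham. In TBI it had 1028, 24.8 and 40.8 CPM. TBI2 and TBI3 lay within the sham range, and TBI1 was 19.4 times the highest of the other libraries. This gave Penk a log2 fold change of 3.54 (standard error 1.46, edgeR adjusted p 0.982). Without TBI1 it was 0.065 (standard error 0.505). Penk shares 233 of 1634 exonic bases with A830012C17Rik, a gene on the opposite strand, and reads there cannot be assigned without strand information. That gene had 208 counts in TBI1 and 0 to 20 counts elsewhere, against 41993 counts of Penk in TBI1.

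Pdyn (ENSMUSG00000027400.11, chromosome 2, 129686565 to 129699844, minus strand), the dynorphin precursor, had 12.3, 5.65 and 10.5 CPM in sham and 152, 8.31 and 6.91 CPM in TBI. TBI1 was 12.4 times the next highest library, and the other TBI mice were within the sham range. Pdyn had a log2 fold change of 2.56 (standard error 1.22, edgeR adjusted p 0.982) and -0.32 (standard error 0.370) without TBI1. Against Sham1 and Sham3 alone, TBI2 and TBI3 had a log2 fold change of -0.58 (standard error 0.220, edgeR adjusted p 0.853).

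Tac1 (ENSMUSG00000061762.12, chromosome 6, 7554879 to 7565834, plus strand), which encodes substance P and neurokinin A, had 10.7, 12.5 and 16.7 CPM in sham and 201, 11.3 and 15.2 CPM in TBI. TBI1 was 12.0 times the next highest library. For Tac1 the log2 fold change came to 2.51 (standard error 1.10, edgeR adjusted p 0.982), and without TBI1 it was -0.0057 (standard error 0.267).

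Penk, Pdyn and Tac1 were thus high in the same mouse and in no other. Over all genes tested, 64 (0.341%) were more than 5 times as high in TBI1 as in any other library. By the same margin, 49 genes (0.261%) stood out in TBI3, 37 (0.197%) in Sham2 and at most 2 in any remaining library. The tested genes whose course over the 6 libraries was closest to that of Penk were Rgs9 and Drd2, with root mean square differences of 0.420 and 0.455 in centered log2 level. For Pdyn they were Rasd2 (0.267) and Ppp1r1b (0.419), and for Tac1 Rarb (0.227) and Ppp1r1b (0.298). All of these are on the list of striatum markers. Ppp1r1b, which encodes DARPP-32 of striatal neurons, was at 1787 CPM in TBI1 and at 80.9 to 149 CPM elsewhere. In TBI1 the order of the peptides per kilobase was led by Penk at 709 CPM, ahead of Sst at 333 CPM and Cck at 219 CPM. Several opioid and tachykinin receptors were highest in TBI1. The kappa receptor Oprk1 was at 28.5 CPM there against 0.249 to 2.42 CPM elsewhere, and the substance P receptor Tacr1 at 20.6 CPM against 1.21 to 3.44 CPM. The delta receptor Oprd1, a receptor of enkephalins, was at 33.0 CPM against 5.47 to 15.8 CPM, and the neurokinin B receptor Tacr3 at 5.34 CPM against 0.888 to 4.64 CPM. The mu receptor Oprm1, at 2.13 CPM in TBI1, lay within the 1.01 to 2.34 CPM of the other libraries.

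**Figure D4:**
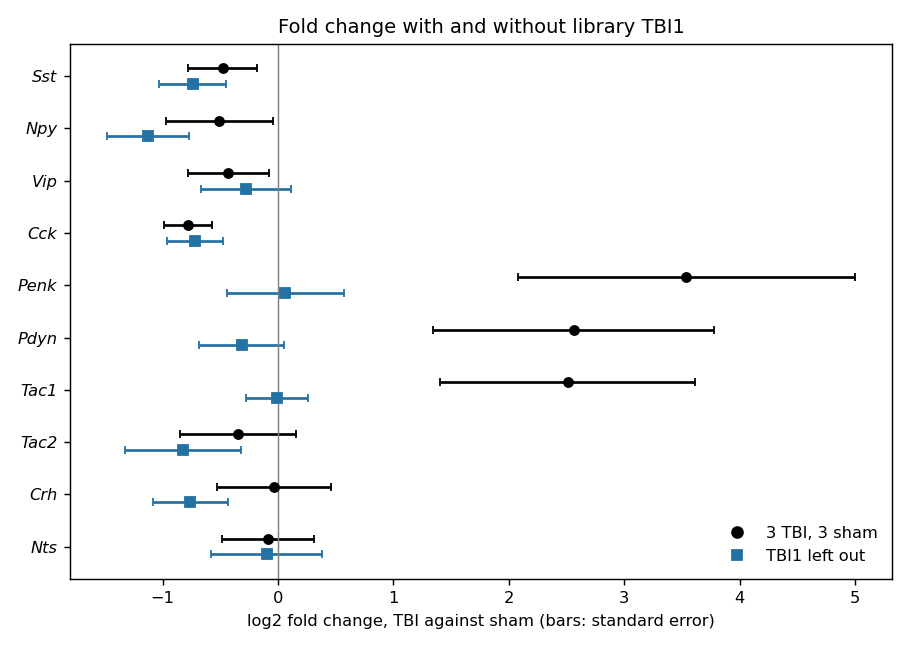
Log2 fold change of TBI against sham (x axis, bars are standard errors) for the 10 precursor genes (y axis), with all 6 libraries (black) and without TBI1 (blue). Leaving out TBI1 moved Penk from 3.54 to 0.065, Pdyn from 2.56 to -0.32 and Tac1 from 2.51 to -0.0057, while Cck stayed at -0.78 and -0.72.

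Vip (ENSMUSG00000019772.5, chromosome 10, 5639218 to 5647617, plus strand), the precursor of vasoactive intestinal peptide, had 14.8, 17.1 and 21.5 CPM in sham and 10.3, 20.5 and 8.87 CPM in TBI. TBI1 and TBI3 were below all sham mice and TBI2 was within their range. Its log2 fold change was -0.43 (standard error 0.349, edgeR adjusted p 0.982). It was -0.28 without TBI1 and -0.90 without TBI2, and with TBI2 alone the sign turned, at 0.20 (standard error 0.292). Htr3a, a serotonin receptor subunit of the interneuron class that includes Vip cells, had 10.7, 19.1 and 9.37 CPM in sham and 3.75, 8.15 and 4.38 CPM in TBI, without overlap. Of other genes of related interneurons, Prox1, which dentate granule cells also express, was lower without overlap (log2 fold change -0.85), and the groups overlapped in Adarb2 (-0.21) and Calb2 (0.95). In all, 4 of the 22 interneuron markers (Htr3a, Prox1, Dlx1 and Elfn1) were lower without overlap, against 5.46% of all genes, and 1 (Chodl) was higher, against 4.77%.

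Tac2 (ENSMUSG00000025400.11, chromosome 10, 127724478 to 127731768, plus strand), the neurokinin B precursor, had 2.89, 5.75 and 8.98 CPM in sham and 7.17, 3.38 and 3.26 CPM in TBI. The groups overlapped widely, with a 3.11-fold range among the sham mice. Tac2 had a log2 fold change of -0.35 (standard error 0.503, edgeR adjusted p 0.983). It was 0.092 without Sham3 and -0.82 without TBI1. The summed level of 9 markers of the medial habenula, a tissue rich in Tac2, was 93.5 CPM in Sham3 and 44.3 to 67.9 CPM elsewhere. Nwd2, at 43.2 CPM, and Lrrc55, at 16.7 CPM, made up much of the sum in Sham3. Of the 9 genes, 5 were highest in Sham3, 3 in TBI3 and 1 in TBI1, and among the sham mice all 9 were highest in Sham3. Their part in the level of Tac2 was not tested.

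Crh (ENSMUSG00000049796.4, chromosome 3, 19693401 to 19695396, minus strand), which encodes corticotropin-releasing hormone, was the lowest member. It had 91, 97 and 107 counts in sham and 177, 43 and 56 counts in TBI, or 2.25, 2.42 and 2.79 CPM and 4.33, 1.36 and 1.57 CPM. TBI1 was above all sham mice, and TBI2 and TBI3 were below them. The log2 fold change was -0.032 (standard error 0.493, edgeR adjusted p 0.996), and it was -0.76 (standard error 0.327, edgeR adjusted p 0.906) without TBI1. Crhbp encodes the protein that binds and holds back this hormone. It was at 33.9, 43.4 and 26.2 CPM in sham and at 10.9, 22.7 and 12.4 CPM in TBI. All TBI mice were below all sham mice, with a log2 fold change of -1.17 (standard error 0.332, edgeR adjusted p 0.982). The value of Crhbp was -0.98 without TBI1, -1.57 without TBI2 and -0.60 with TBI2 alone.

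Nts (ENSMUSG00000019890.4, chromosome 10, 102481756 to 102490486, minus strand), the neurotensin precursor, had 13.2, 6.03 and 13.1 CPM in sham and 10.2, 13.7 and 6.37 CPM in TBI. The ranges were nearly the same in both groups, and the log2 fold change was -0.090 (standard error 0.399, edgeR adjusted p 0.992). It was -0.098 without TBI1, changed sign in several alternatives and ran from -0.38 to 0.15 when 1 library was left out.

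Of 27 receptors and binding proteins of these peptides, 24 were tested and 0 were called in either direction. At an unadjusted p under 0.05 there were 3, Crhbp, Sstr3 and Npy2r, and all 3 were lower in TBI, against 4.29% of all genes in either direction. The groups did not overlap in 1 higher and 2 lower genes of the 24, against 4.77% and 5.46% of all genes. The higher one was Cckar, near the limit of detection at 0 to 0.234 CPM in sham and 0.347 to 0.505 CPM in TBI. The median log2 fold change of the list was 0.20, and 14 genes had a positive and 10 a negative value. The most abundant were Sort1, which binds neurotensin and was at 692, 534 and 623 CPM in sham and 548, 553 and 421 CPM in TBI (log2 fold change -0.28, standard error 0.158), and the receptor Adcyap1r1 (0.033, standard error 0.167). Adcyap1r1 was 0.17 without TBI1 and -0.11 without TBI3.

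**Figure D5:**
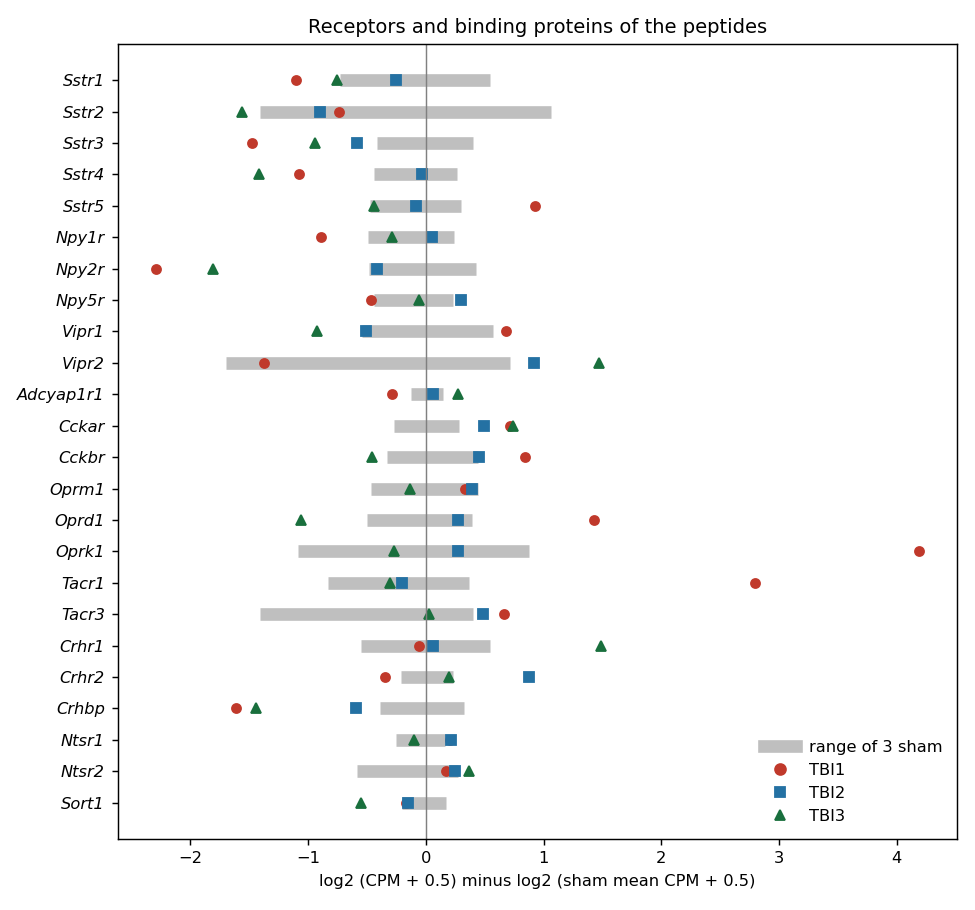
Each TBI library relative to the sham mean (x axis, log2 of CPM + 0.5) for the 24 tested receptors and binding proteins (y axis), with the range of the 3 sham mice in grey. Crhbp and Sstr3 lie below the sham range in all 3 TBI mice, and Oprk1 and Tacr1 lie far above it in TBI1 only.

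Of 22 other neuropeptide precursors 13 were tested, 5 with a positive and 8 with a negative log2 fold change and a median of -0.14, and 0 were called. Cort was the 1 gene of the 13 at an unadjusted p under 0.05, against 4.29% of all genes. Trh and Grp had the highest means, with log2 fold changes of -3.65 (standard error 2.09) and -1.63 (standard error 1.01). Without Sham2 the value of Trh was 2.20, so its direction rested on that mouse. Grp was at 0.587 CPM in TBI1 and at 8.65 to 48.1 CPM in the other libraries, and its value was -1.08 without TBI1, -1.02 without Sham2 and -2.63 without TBI2. With TBI2 and TBI3 against Sham1 and Sham3 it was -0.47.

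The precursors are sorted, cut and trimmed by a shared set of enzymes and granins. All 18 genes of this list were tested, with 6 positive and 12 negative log2 fold changes, a median of -0.068 and 0 called. Pcsk5, a convertase, was the 1 gene at an unadjusted p under 0.05, which 4.29% of all genes reached. It was at 10.6, 19.2 and 12.7 CPM in sham and 4.16, 9.73 and 4.27 CPM in TBI, with no overlap and a log2 fold change of -1.23 (standard error 0.414, edgeR adjusted p 0.982). Without TBI1 the value of Pcsk5 was -1.02 and its unadjusted edgeR p 0.0649. That value was -1.75 without TBI2 and -0.54 with TBI2 alone. The most abundant were Cpe, the carboxypeptidase that trims the cut peptides, at -0.19 (standard error 0.112), and Pcsk1n, an inhibitor of convertase 1, at 0.14 (standard error 0.113). Pcsk1n was at 0.057 without Sham2 and at 0.18 without Sham1. The groups did not overlap in 2 lower genes of the 18, Pcsk5 and Furin, against 5.46% of all genes, and in 2 higher ones, Pcsk1n and Scg5, against 4.77%. Among the main neuronal convertases, Pcsk1 had a log2 fold change of -0.064 (standard error 0.371) and Pcsk2 one of 0.21 (standard error 0.237).

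All 12 peptidases that break peptides down were tested, and 0 were called, as were 0 of all genes. Mme was the 1 gene at an unadjusted edgeR p under 0.05, against 4.29% of all genes. The groups did not overlap in 1 higher gene, Ece2, against 4.77% of all genes, and in 1 lower gene, Tpp2, against 5.46%. Mme encodes neprilysin, which degrades enkephalins and substance P. It had 6.66, 3.24 and 4.58 CPM in sham and 42.8, 6.44 and 7.66 CPM in TBI. TBI1 was again far above the others, and the log2 fold change of 1.97 (standard error 0.780) became 0.55 (standard error 0.356) without it. The most abundant peptidases, Tpp2 and Ece1, had log2 fold changes of -0.26 (standard error 0.140) and 0.33 (standard error 0.284). With 1 library left out, Tpp2 ran from -0.33 to -0.14, and Ece1 from 0.11 without TBI1 to 0.56 without TBI2.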

How the data were processed

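Per the labels, FastQC, HISAT2 and StringTie were run on the reads, with GRCm38 as the genome. What the authors deposited is 1 column of estimated counts per library, as whole numbers without normalization. The releases of these 3 tools, the annotation release, strandedness and step from coverage to counts are not given in the sources used here. Values pile up at multiples of 4 (the value 4 occurred 5109 times, 3 occurred 2325 times), so a value need not be a number of reads. All values were whole, so rounding changed none. Of 52550 identifiers, 52403 were matched to a symbol in GENCODE vM21 without version numbers.

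R 4.3.3 was used with edgeR 4.0.16 and DESeq2 1.42.0. Counts were filtered with filterByExpr, scaled by TMM (factors 0.970 to 1.02) and tested over all genes with the quasi-likelihood F-test of edgeR, with p adjusted by Benjamini-Hochberg. Standard errors are the log2 fold change over the root of the F statistic. DESeq2, the tool of the study, was an alternative, as were other scalings, filters and sets of libraries. The fit was tested on simulated data. P-values cover the spread between mice.

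Genes were taken by name, and the members and lists were chosen with earlier results of these data known. Named genes were the 10 members and, per list of receptors, precursors, processing genes and peptidases, up to 4 genes at an unadjusted p under 0.05 and the 2 most abundant, with marker genes as needed. Other genes, such as Lhx6, Cckar, Gal, Pcsk1, Pcsk2, Fos, Nptx2 and Inhba, were named after their values were seen. Courses were compared by the root mean square difference of centered log2 CPM (prior count 2) over 6 libraries. The coding sequence of Pdyn is not reported here.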

Additional observations from a re-analysis of the deposited data

How the results depend on the processing

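No member was called in any alternative run, and the same holds for the lists of other precursors and of receptors. Over all genes, the main test called 0, DESeq2's defaults 46 and DESeq2 on the filtered genes 50. Leaving out 1 library at a time gave 0 to 1 calls. Other sets of libraries were chosen after seeing the data. They gave 43 calls with DESeq2 on TBI2 and TBI3, 1 with TBI2 alone against sham, where the lone mouse is assumed to vary like the sham mice, and 3 with TBI2 and TBI3 against Sham1 and Sham3. Cck was lower in TBI in every alternative run, with log2 fold changes from -0.96 to -0.49. With 1 library left out, the log2 fold change ran from -0.32 to 3.09 for Pdyn, -0.0057 to 3.02 for Tac1, -0.82 to 0.092 for Tac2, -0.76 to 0.25 for Crh, -0.38 to 0.15 for Nts, -4.22 to 2.20 for Trh and -0.11 to 0.17 for Adcyap1r1. With TBI2 alone it was 0.20 for Vip, -0.34 for Penk, -0.19 for Pdyn, -0.24 for Tac1, 0.35 for Nts and -0.29 for Ece1. DESeq2 on TBI2 and TBI3 gave -0.33 for Pdyn and -0.017 for Tac1, and TBI2 and TBI3 against Sham1 and Sham3 gave -0.58, -0.048 and, for Trh, 2.02. Beyond the libraries left out, the cause was not tested.

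Same-numbered mice correlated at -0.0996, -0.065 and 0.153 in their deviations from the group means, and not every mouse correlated best with its own number, so the numbers were not taken to pair the samples. With a replicate block 0 genes were called, and the log2 fold change was -0.78 for Cck, 1.45 for Penk, 1.12 for Pdyn, 1.10 for Tac1 and 0.65 for Trh. Among the members the standard errors ran from 0.206 for Cck to 1.46 for Penk, so the spread between mice limits what can be detected.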

Other observations

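The 17 neuronal activity genes had a negative log2 fold change in 15 cases, with a median of -0.78. The groups overlapped in all 17, while 5.46% of all genes were lower and 4.77% higher without overlap. Npas4 was the 1 gene at an unadjusted edgeR p under 0.05, against 4.29% of all genes. Of the 17, 12 were highest in Sham2 and 14 were lowest in TBI3, the library high in cerebellum markers. Dentate granule cell markers summed to 501 to 778 CPM in sham and 470 to 850 CPM in TBI, and 6 of 10 were lowest in TBI1. Of these 10, 8 had a negative log2 fold change, with a median of -0.71, and Calb1, which is also on the cerebellum list, made up 492 CPM of the sum in TBI3. The 22 interneuron markers summed to 1371 to 1474 CPM in sham and to 2277, 1380 and 2107 CPM in TBI1 to TBI3. In TBI1, the library high in striatum markers, Gad1, Gad2 and Slc32a1 were at 522, 518 and 361 CPM, and in TBI3, the library high in cerebellum markers, Pvalb and Calb2 were at 470 and 254 CPM. Of the 22, 12 had a negative log2 fold change, with a median of -0.12, and 7 were lowest in TBI3. Thalamus markers ranged from 116 to 511 CPM in sham and from 146 to 700 CPM in TBI, and basal forebrain and septum markers from 73.0 to 135 CPM and from 79.8 to 310 CPM. In TBI3 Zic1, which is also on the cerebellum list, made up 276 CPM of the latter sum, while 7 of the 10 genes were highest in TBI1, among them Chat at 16.2 CPM against at most 1.25 CPM elsewhere and Lhx8 at 6.76 CPM against 0. Neocortex markers summed to 444 to 519 CPM in sham and 342 to 676 CPM in TBI. The genes closest in course over the 6 libraries were Dnajc1 and Gpatch4 to Sst (root mean square differences of 0.0859 and 0.115), Ccno and Ncan to Npy (0.0916 and 0.123), and Cacng8 and Nek10 to Cck (0.0891 and 0.0917).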
